A study of Mus musculus with 8 samples.

Results

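The Pim kinases are a family of 3 serine/threonine kinases encoded by Pim1, Pim2 and Pim3, and they were found in the deposited tables by these symbols. All 3 were among the 20207 gene names of every library, and all 3 passed the minimum for testing, out of 12561 that did. The study asked how the transcriptome of chronic myeloid leukaemia (CML) stem cells differs from that of normal haematopoietic stem cells (HSCs), and sequenced RNA from 8 libraries of sorted mouse bone marrow cells. By the study's methods, the leukaemic cells came from mice that carry both the Tal1-tTA and the TRE-BCR-ABL1 transgene. In such mice withdrawal of doxycycline (DOX) switches on BCR-ABL1. The same methods give littermates that carry Tal1-tTA alone as the source of normal cells. On that account both groups carry the tTA transactivator, whose Tal1 control region drives it in stem and progenitor cells. The study's methods give mice of 8 to 12 weeks on an FVB/N background, taken 5 weeks after DOX withdrawal. The labels instead give C57BL/6 for every library, and ages of 2 months for 3 normal libraries and 6 months for LT-HSC replicate 2. Which mice were sequenced, and so the genotype of the normal ones, is therefore not settled here.

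Long-term cells (CD150+CD48-CD135-KLS+) gave 2 LT-HSC and 2 LT-CML libraries, and short-term cells (CD150-CD48-CD135-KLS+) gave 1 ST-HSC and 1 ST-CML library. Committed KLS- progenitors (cKit+Lineage-Sca-1-) gave 1 normal KLS- and 1 CML-KLS- library. The number of mice behind a library is not stated, nor whether replicates share any animals. Both LT pairs differ in the Y-linked transcript given below, and the LT-HSC pair also in labelled age, so neither pair came wholly from the same mice. The p-values measure only the spread between these samples, which in LT cells includes sex and, in LT-HSCs, age. Depth was an estimated 17.8 to 23.9 M reads. The summed RPKM of 6 stem cell markers lay between 275 and 474 in the 6 LT and ST libraries, against 90.4 and 105 in the KLS- libraries. Some libraries stood apart. The summed RPKM of 4 neutrophil markers was 3167 in LT-HSC replicate 2, against 12.3 to 886 in the other 7 libraries. The myeloperoxidase transcript Mpo, a marker of committed myeloid progenitors, was at 1291 RPKM in LT-CML replicate 2, at 830.1 RPKM in ST-CML and at 5.20 RPKM in LT-CML replicate 1, against 31.8 to 95.5 RPKM in the normal stem libraries. The Y-linked gene Ddx3y was at 31.0 RPKM in LT-HSC replicate 2 and at 17.5 RPKM in LT-CML replicate 2, and at or under 0.0625 RPKM in the other 6.

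Pim kinases are constitutively active: they lack a regulatory domain and an activating phosphorylation step of the kind that controls AKT, so that their activity follows the amount of protein made from short-lived transcripts. Cytokine receptors act on them through Janus kinases (JAKs), which phosphorylate STAT5, and STAT5 binds DNA motifs known as GAS elements and raises Pim1 and Pim2 transcription. BCR-ABL1 activates STAT5 without cytokine, and the kinases are known in blood cells for promoting survival, translation and cell cycle entry through substrates such as BAD, 4E-BP1 and p27. Pim1 and Pim2 were first found as common sites of retroviral insertion in mouse lymphomas.

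The genes lie on separate chromosomes (coordinates in mm9, gene models from GENCODE M1). Pim1 (ENSMUSG00000024014.6) occupies chr17:29627757-29632390 on the plus strand, Pim2 (ENSMUSG00000031155.8) chrX:7455388-7460558 on the plus strand and Pim3 (ENSMUSG00000035828.9) chr15:88692616-88696150 on the plus strand. Each has 6 exons, and they encode 397, 370 and 326 codons, not counting the stop. The aligned coding sequences of Pim1 and Pim3 are identical at 73.7% of bases, those of Pim2 and Pim3 at 65.7% and those of Pim1 and Pim2 at 64.1%. The longest run of bases that any pair shares in full is 24, shorter than the 100-base reads, and no run of 50 bases is shared with the coding transcript of any other gene. Only Pim1 overlaps another annotated gene, the antisense non-coding Gm16912, and since the library kit did not mark strand, reads from the overlap cannot be told apart.

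The sequence upstream of the 3 genes differs in the letters that STAT factors bind. The GAS motif was searched as TTCNNNGAA, a palindrome that reads the same on both strands, in the 2000 bases before the start of the coding transcript. Pim2 held 4 matches, whereas Pim1 and Pim3 held 0 each. Of 22372 genes scanned in the same way, 48.5% held at least 1 match and 0.55% held 4 or more, with a mean of 0.67 per gene. The 4 sites are shown with 10 bases on either side and with the match in capitals, because they set Pim2 apart from its relatives. They lie on chromosome X at chrX:7453916-7453924, chrX:7454297-7454305, chrX:7454887-7454895 and chrX:7455159-7455167.
Pim2 site 1504 bases before the start: gtcaaccagtTTCTCTGAAttccagtgtc
Pim2 site 1123 bases before the start: gcacaaatatTTCTGTGAAtgtacatatc
Pim2 site 533 bases before the start: aattttacccTTCCCTGAAgagtggacca
Pim2 site 261 bases before the start: cgcaaaggaaTTCCCAGAAgcgtgcatgt
The 300 bases just before the start are given for each gene, 5′ to 3′ on the plus strand, so that the window that holds the nearest site can be read against those that hold none. They cover chr17:29627457-29627756, chrX:7455128-7455427 and chr15:88692316-88692615. The coding transcript used for Pim2 begins inside the gene span given above, so its window ends within that span.
Pim1: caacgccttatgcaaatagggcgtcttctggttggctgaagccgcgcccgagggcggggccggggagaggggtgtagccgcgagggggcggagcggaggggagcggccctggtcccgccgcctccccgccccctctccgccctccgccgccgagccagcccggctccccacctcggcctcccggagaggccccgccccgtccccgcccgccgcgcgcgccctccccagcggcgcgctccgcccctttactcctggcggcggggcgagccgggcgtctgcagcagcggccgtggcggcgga
Pim2: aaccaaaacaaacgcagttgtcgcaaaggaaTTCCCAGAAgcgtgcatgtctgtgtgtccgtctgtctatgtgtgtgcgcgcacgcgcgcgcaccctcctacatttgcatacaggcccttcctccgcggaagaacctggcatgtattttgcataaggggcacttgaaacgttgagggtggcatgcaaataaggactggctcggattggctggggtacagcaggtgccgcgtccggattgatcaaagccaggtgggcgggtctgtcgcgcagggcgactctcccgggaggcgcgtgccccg
Pim3: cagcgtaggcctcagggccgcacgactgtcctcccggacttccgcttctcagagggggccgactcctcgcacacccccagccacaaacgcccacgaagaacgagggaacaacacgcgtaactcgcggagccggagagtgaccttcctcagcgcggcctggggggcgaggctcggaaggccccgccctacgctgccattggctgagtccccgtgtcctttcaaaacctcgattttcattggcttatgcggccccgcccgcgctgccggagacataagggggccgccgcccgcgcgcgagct
The Pim1 window is 79.7% G or C with 43 CpG dinucleotides, the Pim3 window 67.7% with 34, and the Pim2 window 59.0% with 25. Of 12 other genes known as outputs of STAT5, 9 held a match in their 2000 bases, among them Socs2 with 4, Osm with 3 and Cish with 2. In the RefSeq promoter windows (300 bases around each start, GRCm38.p6 table), which match mm9 once each, none of the Pim windows held the motif, against 8.3% of 32851 windows. A match describes letters only and shows no binding.

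**Figure D1:**
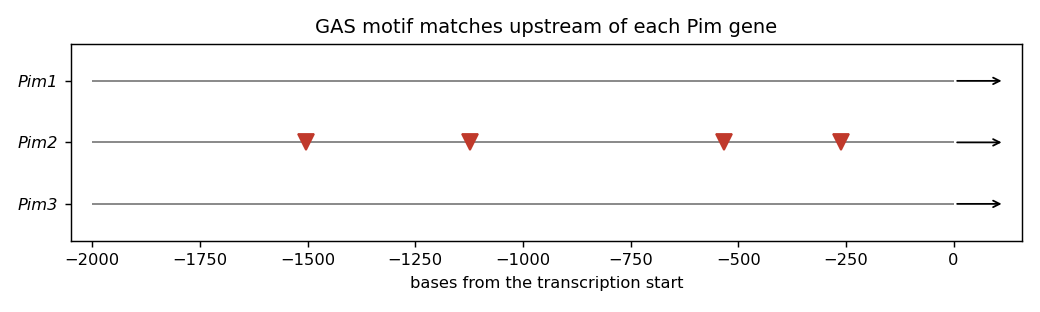
Matches to the GAS motif (triangles) in the 2000 bases before the start of the coding transcript of each Pim gene. The x axis gives the distance in bases, and an arrow the direction of transcription. Pim2 has 4 matches, at 1504, 1123, 533 and 261 bases before its start, and the lines of Pim1 and Pim3 hold none.

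Pim2 transcript was higher in CML stem cells than in normal HSCs, Pim1 varied too much between libraries to call, and Pim3 was low throughout. Pim2, the member long linked to survival and translation in blood cells, was at 24.3 and 23.2 RPKM in the LT-CML libraries and at 20.3 RPKM in the ST-CML library. In the normal LT-HSC libraries it was at 8.13 and 7.20 RPKM, and in the ST-HSC library at 10.8 RPKM. Every CML stem library was above every normal one, and the lowest CML value (20.3) was still above the highest normal value (10.8), as held for 6.92% of all genes tested. The means were 22.6 ± 2.06 RPKM (SD, n = 3) and 8.72 ± 1.88 RPKM (SD, n = 3). In limma the difference on the log2(RPKM + 1) scale was 1.29 (standard error 0.17, adjusted p = 0.0109), rank 109 of 12561 genes by p, where 2.34% of genes were called. An exact two-sided permutation test of the same 3 against 3 libraries gave p = 0.1, the smallest that this design allows, and 0.15 after adjustment over the 3 genes. The size was steady at 1.16 to 1.44 over 16 alternatives, and the call was lost in 4 of them. These were the fits without LT-HSC replicate 1 (adjusted p = 0.0625), without LT-CML replicate 1 (0.0649), without LT-HSC replicate 2 and LT-CML replicate 2 together (log2 difference 1.16, 0.134) and without a filter on low values (0.0571). Pim2 is also among the genes that the study selected on these same libraries, so its direction here is not independent evidence. Markers of other cells differed between the same libraries. The summed RPKM of 6 committed progenitor markers was 143, 204 and 278 in the normal stem libraries and 145, 1767 and 1189 in LT-CML replicates 1 and 2 and ST-CML. Of 34 markers of 8 cell types, the monocyte gene Cd14 alone was higher in every CML stem library (8.07, 16.3 and 19.3 RPKM) than in every normal one (1.01, 4.14 and 1.35 RPKM), and Hbb-b1, Klrb1c and Cd3g were lower in every one. Among all genes tested 6.92% were higher and 11.4% lower in this way, so these counts do not set the markers apart. Pooling LT with ST cells can hide markers whose levels differ between these populations. Within LT and also within ST cells, Slamf1, Cd48, Nkg7 and Itga2b were higher in CML, and Ly6a and Itgam lower. Each ST group is 1 library, and the share of all genes that did so was not counted. In the normal and CML KLS- libraries the committed progenitor sum was 9592 and 15140, and Pim2 was at 2.37 and 2.56 RPKM. The part of committed progenitors or other cells in the Pim2 difference between stem libraries was not tested.

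Pim1, the founding member and a partner of Myc in lymphoma models, was at 19.2 and 7.86 RPKM in the LT-CML libraries and at 21.5 RPKM in ST-CML. In normal cells it was at 6.09 and 11.6 RPKM in LT-HSCs and at 15.7 RPKM in ST-HSCs. The groups overlapped, and LT-CML replicate 2 lay below 2 of the 3 normal libraries. The means were 16.2 ± 7.30 and 11.1 ± 4.80 RPKM (SD, n = 3 each). The log2 difference of 0.48 (standard error 0.42) did not pass in limma (adjusted p = 0.726), and the exact permutation test gave p = 0.5. LT-CML replicate 2, the lower of its pair, was also the library with 1291 RPKM of Mpo, and the part of that in its Pim1 level was not tested.

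Pim3, the least studied member in blood, was at 1.30 and 1.75 RPKM in LT-CML and at 1.46 RPKM in ST-CML, against 1.91 and 3.60 RPKM in LT-HSCs and 1.94 RPKM in ST-HSCs. Every CML stem value was below every normal one, as held for 11.4% of all genes tested, though the nearest, 1.75 and 1.91 RPKM, rest on an estimated 77 and 92 reads and differ by less than their counting errors of 11.4% and 10.4% combined. The means were 1.50 ± 0.228 and 2.48 ± 0.969 RPKM (SD, n = 3 each). The log2 difference of -0.45 (standard error 0.21) did not pass in limma (adjusted p = 0.44), and the exact permutation test gave p = 0.1, the smallest possible, and 0.15 after adjustment. The highest normal value came from LT-HSC replicate 2, the library with the most neutrophil transcripts, and their part in it was not tested. In bulk samples, fewer cells that express a gene and less RNA per cell cannot be told apart.

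**Figure D2:**
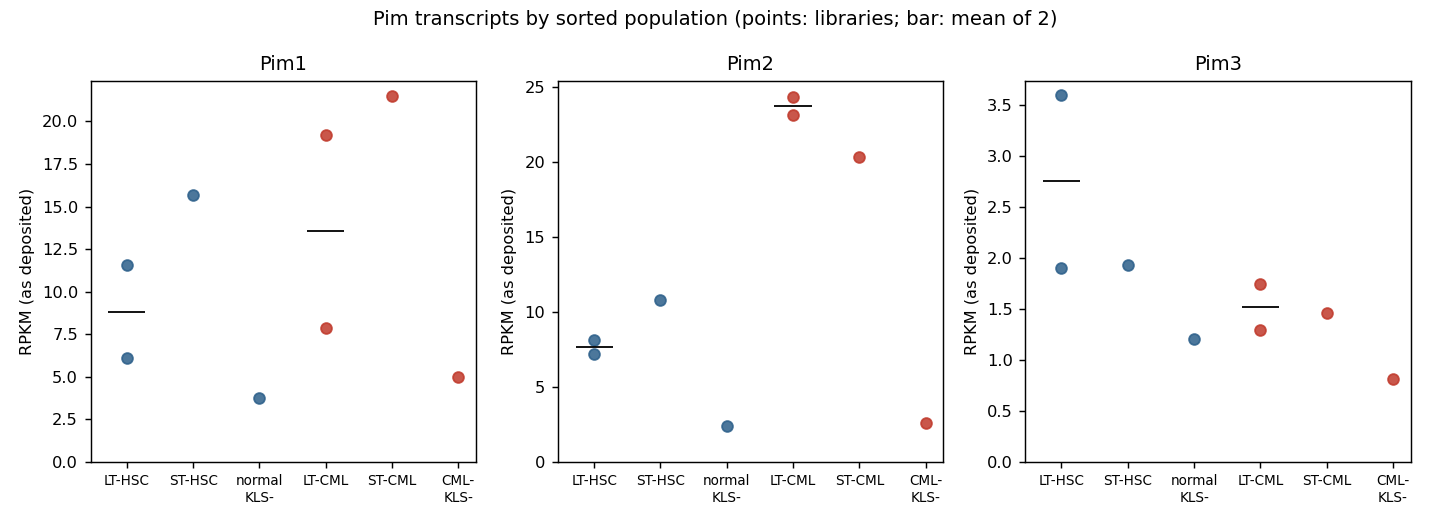
RPKM of Pim1, Pim2 and Pim3 (y axis, linear from 0) in each sorted population (x axis), with normal libraries in blue and CML libraries in red. Each point is 1 library and the bars are means of the 2 LT libraries. The 3 CML stem values of Pim2 lie between 20.3 and 24.3 RPKM, above the normal stem values of 7.20 to 10.8 RPKM, and both KLS- values are near 2.5 RPKM.

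Because RPKM is per length, the members can be weighed against each other within a library. The summed Pim RPKM was 16.1, 22.4 and 28.4 in the normal stem libraries and 44.8, 32.8 and 43.3 in the CML stem libraries, which did not overlap. Of single genes tested, 6.92% separated in that direction. Among the parts, Pim2 alone was higher in every CML stem library, while Pim1 overlapped and Pim3 was lower. The separation of the sum is therefore not a rise of the whole family. Pim2 made up 50.4%, 32.2% and 38.1% of that sum in LT-HSC replicates 1 and 2 and ST-HSC, and 54.2%, 70.7% and 47.0% in LT-CML replicates 1 and 2 and ST-CML, so that the shares overlapped. Pim3 made up 6.8% to 16.1% in the normal and 2.9% to 5.3% in the CML stem libraries. The log2 ratio of Pim2 to Pim3 was 2.06 higher in CML stem libraries and the groups did not overlap (exact two-sided permutation p = 0.1, adjusted over 3 ratios 0.3). With Pim2 higher and Pim3 lower in every CML stem library, this ratio had to separate, so its p adds nothing to theirs. The ratio of Pim2 to Pim1 was 0.87 higher (p = 0.3, exact) and that of Pim1 to Pim3 was 1.19 higher (p = 0.2, exact), and both overlapped.

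**Figure D3:**
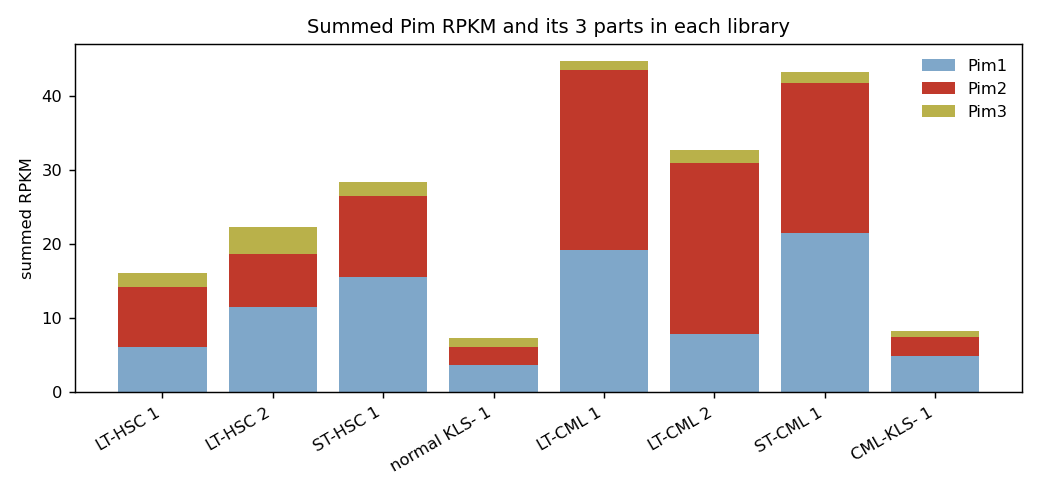
Summed RPKM of the 3 Pim genes (y axis, from 0) in each of the 8 libraries (x axis), with each gene's part stacked by colour. The CML stem bars reach 32.8 to 44.8 RPKM, the normal stem bars 16.1 to 28.4 RPKM and the KLS- bars 7.29 and 8.33 RPKM.

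LT cells were the only population with replicates in both groups. Pim2 rose in LT-CML against LT-HSC, from 7.67 ± 0.658 to 23.7 ± 0.806 RPKM (SD, n = 2 each), a ratio of 3.10. The log2(RPKM + 1) difference was 1.52 (standard error 0.19, adjusted p = 0.0115 in limma), rank 74, in a comparison where 1.73% of genes were called. Leaving out any 1 of the 4 LT libraries left the size at 1.44 to 1.59 but ended the call. The adjusted p was then 0.0557 without LT-HSC replicate 1, 0.0865 without LT-HSC replicate 2, 0.201 without LT-CML replicate 1 and 0.198 without LT-CML replicate 2, and 0.164 without a filter on low values. Pim1 (0.50, standard error 0.42, adjusted p = 0.742) and Pim3 (-0.54, standard error 0.25, adjusted p = 0.479) did not pass. Without LT-CML replicate 1 the estimate for Pim1 turned to -0.09.

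ST cells and KLS- progenitors had 1 library a group, and their CML differences are given as values without a test. In ST cells the CML to normal ratio was 1.88 for Pim2, a log2 ratio of 0.91 with a 95% counting interval of 0.74 to 1.09. For Pim1 the log2 ratio was 0.46 (0.30 to 0.61) and for Pim3 -0.40 (-0.89 to 0.07). In KLS- cells Pim2 was at 2.56 RPKM in CML and 2.37 RPKM in normal mice, a log2 ratio of 0.11 whose interval (-0.32 to 0.53) includes no difference. Pim1 was at 4.96 and 3.72 RPKM, a log2 ratio of 0.42 (0.08 to 0.73), and Pim3 at 0.812 and 1.20 RPKM, a log2 ratio of -0.57 (-1.21 to 0.06). The intervals hold counting error alone, as amplified cDNA does not give 1 read per molecule.

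The CML difference of Pim2 was thus of 3.10-fold in LT, 1.88-fold in ST and 1.08-fold in KLS- cells. The difference between the stem and KLS- compartments was tested as an interaction, with the lone KLS- libraries assumed to vary like the stem libraries. For Pim2 it was -1.22 on the log2 scale (standard error 0.35, unadjusted p = 0.00968 from limma, rank 78), which did not pass after adjustment (adjusted p = 1.0). Only 1 gene (0.00796%) was called in this comparison, and 324 had an unadjusted p under 0.05. For Pim1 (-0.14, standard error 0.85) and Pim3 (0.16, standard error 0.41) the interaction was smaller than its error.

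The Pim transcripts were lower in KLS- progenitors than in stem cells, and this was the widest contrast for Pim1 and Pim2. All 3 genes passed in limma with normal and CML libraries fitted together, in a comparison where 48.7% of genes were called, so that a call by itself sets them apart little. In log2(RPKM + 1), the difference was -2.14 for Pim2 (standard error 0.26, adjusted p = 0.000349). It was -2.75 without the normal KLS- library and -1.53 without the CML-KLS- library, and it passed in all 16 alternatives. For Pim1 the difference was -1.48 (standard error 0.31, adjusted p = 0.0045). For Pim3 it was -0.51 (standard error 0.19, adjusted p = 0.0475), and that call held in 7 of 16 alternatives. It was lost under quantile normalisation (-0.22, adjusted p = 0.39), upper-quartile scaling, the interaction fit and no filter on low values. It was also lost without ST-HSC, LT-CML replicate 2, ST-CML or either KLS- library, where the value lay between -0.60 and -0.43. The Pim1 call was lost without the CML-KLS- library (-1.40, adjusted p = 0.0558) and without a filter on low values (0.0524).

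The stem to progenitor ratio of Pim2 was 3.68 in normal mice (3.04 to 4.57 over the 3 stem libraries) and 8.84 in CML mice (7.94 to 9.50). Those ranges did not overlap, but each divides by 1 KLS- library (an estimated 98 reads in normal and 93 in CML). As the KLS- values were close, the separation restates that of the stem libraries, and the interaction given above did not pass. For Pim1 the ratio was 2.99 in normal (1.64 to 4.21) and 3.26 in CML mice (1.58 to 4.33), and for Pim3 it was 2.06 (1.58 to 2.99) and 1.85 (1.60 to 2.15). These overlapped.

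Between ST and LT cells no Pim gene passed (0 of 3, where 4.87% of all genes did), and Pim1 alone had an unadjusted p under 0.05. Pim1 was 0.78 higher in ST cells on the log2 scale (standard error 0.32, unadjusted p = 0.0385, adjusted p = 0.223 from limma). Pim2 differed by 0.12 (standard error 0.27, adjusted p = 0.854) and Pim3 by -0.17 (standard error 0.20, adjusted p = 0.68).

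**Figure D4:**
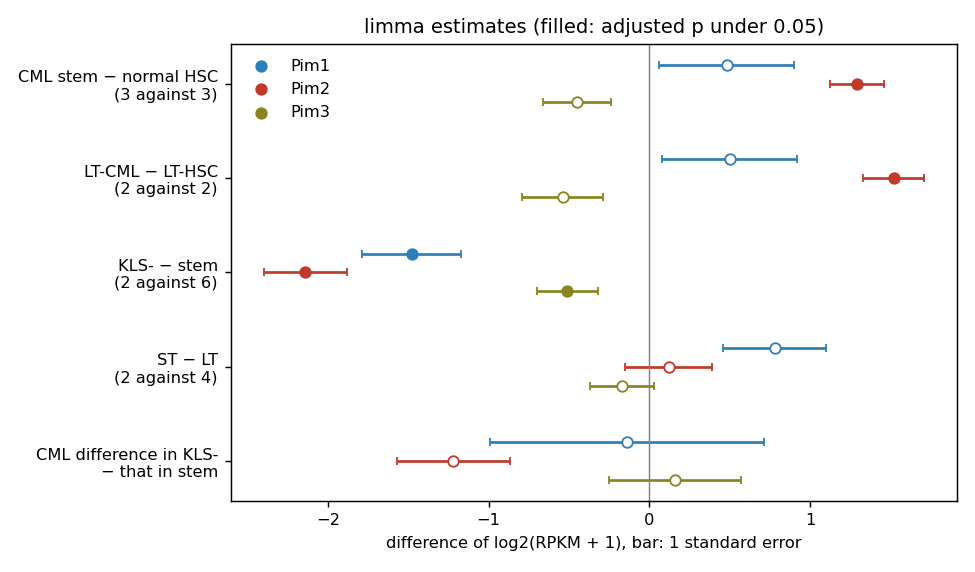
Differences of log2(RPKM + 1) (x axis, bars of 1 standard error) for the 3 Pim genes in the 5 limma comparisons (y axis), with filled points for an adjusted p under 0.05. Pim2 is filled and positive in both CML comparisons (1.29 and 1.52), and all 3 genes are filled and negative in KLS- against stem libraries.

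By population, Pim2 levels fell into 3 tiers. LT-CML (23.7 ± 0.806 RPKM) and ST-CML (20.3 RPKM) stood highest, ST-HSC (10.8 RPKM) and LT-HSC (7.67 ± 0.658 RPKM) in the middle, and the KLS- libraries lowest. The order of the KLS- pair is within counting error. The order for Pim1 was ST-CML (21.5 RPKM), ST-HSC (15.7), LT-CML (13.6 ± 8.04), LT-HSC (8.83 ± 3.87), CML-KLS- (4.96) and normal KLS- (3.72). Among its 4 stem populations the neighbours were no further apart than the larger SD of the LT pairs. Pim3 ran from LT-HSC (2.75 ± 1.20 RPKM) through ST-HSC (1.94), LT-CML (1.52 ± 0.318), ST-CML (1.46) and normal KLS- (1.20) to CML-KLS- (0.812), with each step smaller than the SD of the LT-HSC pair. Among tested genes Pim1 lay between the 46.9th and 82.1st percentile of level in a library, Pim2 between the 38.5th and 83.1st, and Pim3 between the 23.9th and 42.3rd. An estimated 93 to 1029 reads stood behind the Pim2 values, 149 to 790 behind Pim1 and 35 to 208 behind Pim3.

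Upstream of the kinases, 1 of 14 cytokine receptor and JAK-STAT genes rose in CML stem cells and none fell, where 1.18% of all genes rose and 1.16% fell. It was Csf2rb2, the mouse-specific interleukin-3 receptor beta chain, at 3.28, 4.11 and 3.82 RPKM in CML against 1.34, 0.987 and 2.07 RPKM in normal stem libraries (log2 difference 0.96, standard error 0.19, adjusted p = 0.0484 in limma). The call was kept in 2 of 11 alternatives, without ST-HSC and with upper-quartile scaling. It was lost without any other 1 library, with quantile normalisation (adjusted p = 0.0667), with a pseudocount of 0.1 RPKM (0.0557), without a filter on low values (0.177) and without the LT-HSC and LT-CML replicates 2 together (0.253). Csf2rb2 is a close copy of Csf2rb, the common beta chain, and the counting rule could split reads between them. The median of the list was -0.12, beside -0.04 over all genes tested. The transcripts of STAT5 itself did not pass: Stat5a differed by -0.33 (adjusted p = 0.509) and Stat5b by -0.25 (adjusted p = 0.521). The receptor Kit (-0.20) and the kinase Jak1 (-0.06), both among the more abundant transcripts of the list, did not pass either. In LT cells 3 of the 14 rose, where 0.939% of all genes did. They were Csf2rb2 (1.12, adjusted p = 0.0434), Csf2rb (1.55, adjusted p = 0.0136) and Flt3 (1.95, adjusted p = 0.0184). Each of these calls was lost when any 1 LT library was left out and without a filter on low values, and that of Csf2rb2 also with quantile normalisation (0.0706) or upper-quartile scaling (0.0635). Flt3 encodes CD135, on which the sort selected negative cells.

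Of 12 other STAT5 outputs, 1 rose in CML stem cells and none fell, beside 1.18% and 1.16% of all genes, with a median difference of 0.08 beside -0.04 over all genes. The gene was Cish, a feedback inhibitor induced by STAT5, at 28.9, 19.8 and 23.3 RPKM in the CML libraries and at 10.8, 12.8 and 8.25 RPKM in the normal ones (log2 difference 1.11, standard error 0.20, adjusted p = 0.0366 in limma). The groups did not overlap, as held for 6.92% of all genes tested with CML above normal. Cish is like Pim2 among the genes the study selected on these samples. Socs2, another feedback inhibitor, was at 12.1, 9.01 and 10.8 RPKM against 6.63, 3.25 and 2.28 RPKM, also without overlap. It did not pass in limma (1.29, standard error 0.30, adjusted p = 0.0914). The survival genes Bcl2l1 (0.22, adjusted p = 0.819) and Mcl1 (-0.69, adjusted p = 0.135), Myc (0.36, adjusted p = 0.686) and the D cyclin Ccnd2 (-0.21, adjusted p = 0.736) did not pass. The Cish call was lost when any 1 of the 6 libraries was left out (log2 difference 0.95 to 1.24) and without a filter on low values (adjusted p = 0.155). In LT cells 0 of the 12 passed in limma, and 4 had an unadjusted p under 0.05, beside 217 and 1452 of all 12561 genes. In KLS- against stem libraries 8 of the 12 were lower, where 26.5% of all genes were, with Cish (-2.92, adjusted p = 1.73e-05), Socs2 (-2.29, adjusted p = 0.00102) and Socs3 (-2.10, adjusted p = 8.88e-05) the furthest, and Myc and Osm were higher, as were 22.2% of all genes.

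**Figure D5:**
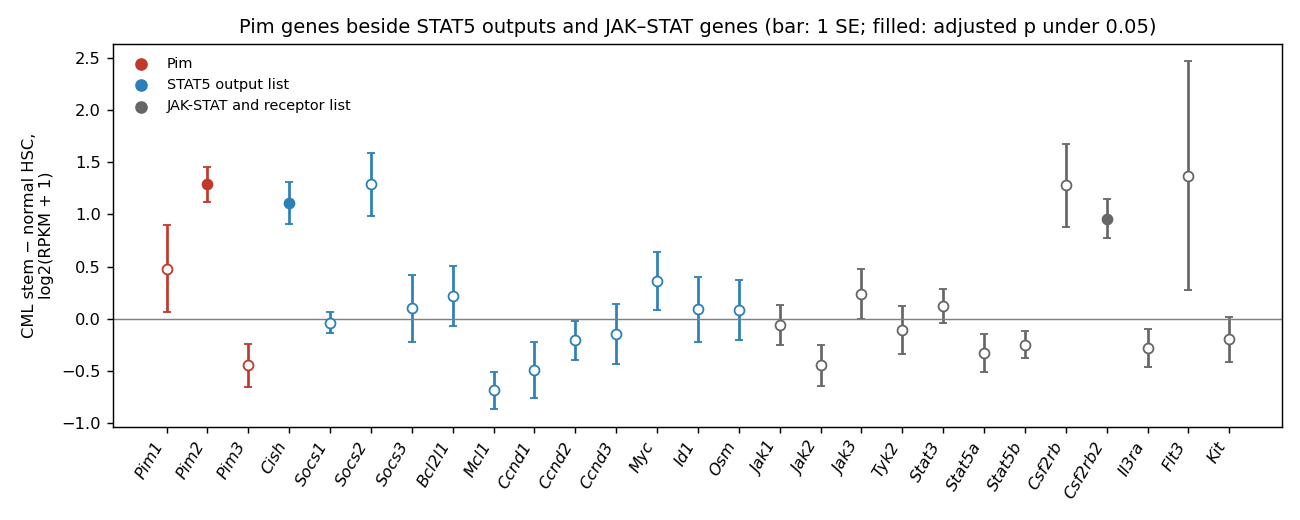
Difference between CML stem and normal HSC libraries in log2(RPKM + 1) (y axis, bars of 1 standard error) for the Pim genes, 12 STAT5 outputs and 12 of the JAK-STAT and receptor genes (x axis), with filled points for an adjusted p under 0.05. Pim2 (1.29), Cish (1.11) and Csf2rb2 (0.96) are filled, while Socs2 (1.29) and Csf2rb (1.28) are as far from 0 but open.

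Downstream, 1 of 17 genes whose products Pim kinases are known to phosphorylate fell in CML stem cells and none rose, where 1.16% of all genes fell and 1.18% rose (median -0.04, as over all genes). Transcript levels of these genes do not measure phosphorylation of their products, and so not Pim activity. Cdkn1b, which encodes the cell cycle inhibitor p27, was at 7.47, 5.94 and 7.36 RPKM in CML and at 14.6, 15.0 and 16.0 RPKM in normal stem libraries. The groups did not overlap, as held for 11.4% of all genes tested with CML below normal. The log2 difference was -1.03 (standard error 0.14, adjusted p = 0.0121 in limma). The call was lost in 3 of 11 alternatives, without LT-HSC replicate 1 (adjusted p = 0.0662), without LT-CML replicate 1 (0.0553) and without the LT-HSC and LT-CML replicates 2 together (0.105). The related inhibitor Cdkn1a, which encodes p21, was at 8.17, 15.8 and 7.73 RPKM against 19.7, 38.1 and 19.8 RPKM, and did not pass (-1.22, standard error 0.33, adjusted p = 0.147). Bad, the pro-death target (-0.01), the translation factor Eif4b (-0.01), the heterochromatin protein Cbx3 (-0.03) and Snd1 (0.02) were each within 0.03 of 0, with adjusted p of 0.961 or more. In LT cells 0 of the 17 passed in limma and 2 had an unadjusted p under 0.05, beside 217 and 1452 of all 12561 genes. Cdkn1b was at -1.04 there, with an adjusted p of 0.0549. In KLS- against stem libraries 6 of the 17 were higher and 7 lower, beside 22.2% and 26.5% of all genes.

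Among 8 AGC kinases that share substrates with the Pim family, Sgk1 fell in CML stem cells (1 of 8, beside 1.16% of all genes), from 37.4, 41.4 and 47.7 RPKM to 13.8, 22.5 and 9.90 RPKM (log2 difference -1.46, standard error 0.27, adjusted p = 0.0374 in limma). No other member of the list passed, including Akt2 (0.15), the ribosomal S6 kinases Rps6ka1 (-0.25) and Rps6kb1 (-0.07), and Sgk3 (0.06). The Sgk1 call was kept without LT-CML replicate 2 and lost without any other 1 library (log2 difference -1.54 to -1.20), with quantile normalisation (adjusted p = 0.0516), without a filter on low values (0.192) and without the LT-HSC and LT-CML replicates 2 together (0.0758). Of 6 genes for the chaperones and the phosphatase PP2A that set how long Pim proteins last, 0 passed in CML stem cells. In that list 1, Ppp2cb, had an unadjusted p under 0.05, and the median was -0.28. Of 7 genes of NF-kB, another inducer of Pim transcription, 0 passed and 2 had an unadjusted p under 0.05 (median -0.22). Over all 12561 genes 294 passed there in limma and 1573 had an unadjusted p under 0.05, so 0 calls in lists this small say little. In KLS- cells 6 of the 7 NF-kB genes were lower, where 26.5% of all genes were. Over the 6 lists, 4 genes were called in CML stem cells, and 0 were without LT-HSC replicate 2 and LT-CML replicate 2. In that fit 38 of 12561 genes were called and 1528 had an unadjusted p under 0.05, as did 1 to 3 members of each list.

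The neighbours of the Pim genes did not share the Pim2 difference. Otud5 ends 1636 bases before Pim2, and it was at 3.45 to 5.85 RPKM in the stem libraries (log2 difference -0.13, adjusted p = 0.841 in limma). Slc35a2 begins 609 bases after Pim2 and differed by -0.03 (adjusted p = 0.961), and Pqbp1 beyond it by -0.09 (adjusted p = 0.814). Kcnd1, Mtch1, Fgd2, Tbc1d22b, Rnf8, Alg12 and Creld2 did not pass in CML stem or LT cells, and Ttll8 and Mlc1, next to Pim3, were near 0 and not tested. Pim2 lies on the X chromosome, and Xist, the transcript of the inactive X, was at 0.154 RPKM in LT-HSC replicate 2 and at 12.4 to 30.8 RPKM in the other 7 libraries. Pim2 was at 7.20 RPKM in LT-HSC replicate 2 and at 8.13 RPKM in LT-HSC replicate 1. The part of the sex of the mice in the Pim2 level was not tested.

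Across the 8 libraries the members followed each other loosely. Pearson's r of log2(RPKM + 1) was 0.778 between Pim1 and Pim2, 0.282 between Pim1 and Pim3 and 0.218 between Pim2 and Pim3, as a description over libraries that include replicates and differ in cell type. Of 10033 genes with a mean of at least 1 RPKM, those most like Pim2 were Lrp12 (r = 0.985), 1810013L24Rik (0.985), Gje1 (0.982), Usp6nl (0.981) and Zfp57 (0.977). Zfp57, a zinc finger protein that maintains imprints, was at 6.66, 7.23 and 4.93 RPKM in CML stem libraries, at 2.08, 2.65 and 2.02 RPKM in normal ones and at 0.366 RPKM or less in KLS- cells. These genes were picked for their likeness to Pim2 over the same libraries, so that their values are a description. Most like Pim1 were 2810408P10Rik (r = 0.984), Ankrd37 (0.98), 0610007C21Rik (0.976), Kif3b (0.976) and Ppp1r3b (0.971). Most like Pim3 were Yrdc (r = 0.97), Tiparp (0.97), Rtn4 (0.969), Rnf19b (0.967) and Ddx5 (0.964).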

How the data were processed

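Libraries were prepared with a SMARTer kit that primes on poly(A) and keeps no strand, and sequenced as paired ends of 100 bases. The authors mapped the reads to mm9 with SeqNova CS and deposited RPKM (reads scaled by gene length and mapped reads). Annotation and counting rule are not given in the sources used here. RPKM holds no correction for composition, so no count test was run. Depth, estimated from whole steps that 59.7% of 5990 low genes followed, serves only to judge precision.

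Values were analysed as log2(RPKM + 1), which understates changes of low genes, over 12561 genes with a total above 1 RPKM. The lmFit and trended eBayes functions of limma 3.58.1 (R 4.3.3) were used with Benjamini-Hochberg adjustment over all genes and a threshold of 0.05. CML stem libraries were compared with normal HSCs without covariates, LT cells in a fit of 6 population means, and KLS- and ST contrasts in an additive fit of disease and population. Permutation tests used scipy 1.17.1. On simulated data with 200 genes changed by 2 on the log2 scale, 88.0% were recovered in the CML stem comparison, 73.5% in LT and 46% for the interaction. In the CML stem comparison 6.4% of the simulated calls fell on unchanged genes. Changes as small as those of Pim2 (1.29 and 1.52) were not simulated. The simulation drew spreads at random over genes, whatever their level, and changed only genes with a mean log2(RPKM + 1) above 1. Apart from the change, a gene had 1 level in all libraries, with no difference by population, sex or other cells. Recovery in the real data may therefore differ. Loci and motifs came from GENCODE M1, where 93.2% of gene names matched 1 locus.

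The members and lists were chosen with earlier results of these data known. Genes named are the Pim genes, list members past the threshold in either CML comparison with up to 4 others of highest RPKM a list, neighbours, the 5 most alike and markers. Socs2, Socs3, Osm, Stat5a, Stat5b, Cdkn1a, Bad and Ppp2cb were added after their values were seen. Of the list genes, 2 are not reported here by name. Alternatives covered pseudocount, filter, scaling, trend, covariates and left-out libraries.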

Additional observations from a re-analysis of the deposited data

How the results depend on the processing

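Pim2 kept its direction in both CML comparisons under every alternative run. Without a filter on low values its calls were lost in CML stem cells (1.29, adjusted p = 0.0571) and LT cells (1.52, adjusted p = 0.164), as was that of Pim1 (-1.48, adjusted p = 0.0524) and of Pim3 (-0.51, adjusted p = 0.156) in KLS- against stem libraries. The count of called genes then went to 173 in CML stem, 0 in LT (limma, 1881 at an unadjusted p under 0.05), 127 in ST against LT and 206 for the interaction. The Pim3 call in KLS- cells was also lost with quantile normalisation (-0.22), upper-quartile scaling (-0.57) and the interaction fit (-0.54). Without LT-HSC replicate 2 and LT-CML replicate 2 the Pim2 difference in CML stem cells was 1.16 and not called. Taken from mean RPKM with no pseudocount, the log2 LT difference of Pim2 was 1.63. The interaction called 0 genes with pseudocounts of 0.1 or 0.5 RPKM, with a mean of at least 1 RPKM or without an intensity trend (limma, 195 to 315 at an unadjusted p under 0.05). The causes were not tested.

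Leaving out 1 library at a time gave Pim2 1.18 to 1.44 in CML stem cells, 1.44 to 1.59 in LT cells and -0.02 to 0.24 in ST against LT, reversed without LT-HSC replicate 2. Pim1 ranged from -0.09 to 1.10 in LT cells, reversed without LT-CML replicate 1, and from -1.59 to -1.35 in KLS- against stem libraries. There Pim2 ranged from -2.75 to -1.53 and Pim3 from -0.60 to -0.43. The interaction ranged from -0.56 to 0.20 for Pim1, which turned positive without LT-HSC replicate 1 (0.20), LT-CML replicate 1 (0.03) or ST-CML (0.11), and from -0.06 to 0.28 for Pim3, reversed without LT-HSC replicate 2. Called genes numbered 115 to 217 in CML stem, 6 to 74 in LT, 3178 to 6338 in KLS- against stem, 110 to 718 in ST against LT and 0 to 1 for the interaction (229 to 414 at an unadjusted p under 0.05 where 0 were called). With 1 LT library left in a group, it was assumed to vary like the others. The interaction could not be fitted without a KLS- library.

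No paired analysis was possible because the normal libraries carry ages rather than replicate numbers, so that no number is shared between the groups. Alternatives for Cish, Csf2rb, Csf2rb2, Flt3, Cdkn1b and Sgk1, and for the list counts, were chosen after seeing the data, and none turned a direction. At the estimated depths Pim3 rests on as few as 35 reads in a library, a counting error of 16.9%.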
